A study of Mus musculus with 47 samples.

Results

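The Mx and immunity-related GTPases are large GTP-binding proteins that cells make when interferon tells them of infection. The members described here are 8 mouse genes listed by symbol, Mx1, Mx2, Irgm1, Irgm2, Igtp, Iigp1, Tgtp1 and Tgtp2, of 54532 genes in the deposited tables. They were listed with their difference between the genotypes already known, so that difference is described below without a test. All 8 were in the table and all 8 passed the filter on low counts, as did 19927 genes in all.

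The tissue was mouse olfactory epithelium, the lining of the nose in which olfactory sensory neurons lie, and polyadenylated RNA was sequenced from 47 libraries of it. The Kir mice carried the strain label OIVT;Kir2.1 and gave 4 libraries at P0, 3 at P3, 3 at P5, 4 at P7, 4 at P10, 3 at P14 and 3 at P21 (P, postnatal day). The WT mice were C57BL/6J and gave 4, 3, 3, 4, 3, 3 and 3 libraries at the same ages. Kcnj2 encodes Kir2.1, a potassium channel that passes current inward more readily than outward and so quiets a cell. The labels do not spell out OIVT, name the promoter that drives the channel, give the strain background of the Kir mice or say that the WT mice were littermates, so the transgene and any difference in strain background cannot be told apart. They also do not say that each library came from its own animal, and p-values therefore measure the spread between libraries, which may be technical.

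Interferons act through cell-surface receptors that use Janus kinases to switch on transcription factors. Type I and type III interferons act on genes mainly through the interferon-stimulated response element, bound by a complex that holds Irf9, and interferon gamma acts mainly through the gamma-activated site. Mx proteins resemble dynamin and block the replication of RNA viruses: mouse Mx1 acts in the nucleus against influenza virus and Mx2 in the cytoplasm. The immunity-related GTPases defend mice against parasites and bacteria that live in vacuoles. Irgm1, Irgm2 and Igtp (also called Irgm3) sit on the cell's own membranes and hold the other members in an inactive state. Iigp1 (Irga6), Tgtp1 and Tgtp2 (both Irgb6) are effectors that gather on the vacuole of Toxoplasma or Chlamydia and break it. Laboratory strains such as C57BL/6 carry defective alleles of Mx1 and Mx2, and RefSeq lists both as transcribed pseudogenes, so their RNA levels do not speak for protein.

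The promoters of the 5 chromosome 11 members are shown for the elements through which interferons act. Those of Mx1, Mx2 and Iigp1 are not reported here and are outside the counts of members below. Each line gives the 100 bases before the start of transcription, 5′ to 3′ on the strand of the gene, from RefSeq on GRCm38.p6. Capitals mark the core of the interferon-stimulated response element, which is GAAA, any 2 bases and GAAA again, and TTCNNNGAA, the gamma-activated site, where N is any base. In Irgm1 a pair of response element matches overlap.
Irgm1 (chr11:48871421-48871520, minus): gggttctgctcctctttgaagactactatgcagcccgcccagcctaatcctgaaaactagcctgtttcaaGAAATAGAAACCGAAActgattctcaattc
Igtp (chr11:58199456-58199555, plus): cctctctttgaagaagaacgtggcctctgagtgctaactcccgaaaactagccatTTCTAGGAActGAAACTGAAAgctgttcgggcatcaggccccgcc
Irgm2 (chr11:58214877-58214976, plus): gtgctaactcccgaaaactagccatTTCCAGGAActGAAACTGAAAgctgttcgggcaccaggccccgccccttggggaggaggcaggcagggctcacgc
Tgtp1 (chr11:48992247-48992346, minus): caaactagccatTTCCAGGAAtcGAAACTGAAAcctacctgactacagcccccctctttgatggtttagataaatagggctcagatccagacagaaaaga
Tgtp2 (chr11:49064213-49064312, minus): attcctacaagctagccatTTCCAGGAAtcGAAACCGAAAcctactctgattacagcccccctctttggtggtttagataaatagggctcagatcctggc

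Matches were sought on both strands of the 300 bases from 250 before to 50 after each start. The response element core was in the promoters of 5 of these 5 genes and in 3.44% of 32851 RefSeq promoters. TTCNNNGAA was in 4 of the 5, Irgm1 being the exception, and in 8.30% of all promoters. In Igtp, Irgm2, Tgtp1 and Tgtp2 the elements stood in a fixed arrangement, with the gamma-activated site first and a gap of 2 bases to the response element. This joined element of 21 bases, noticed in these promoters and then searched for in the rest, was present in 5 promoters in all (0.0152%): those of the 4 genes and that of Gm12185, a neighbouring immunity-related GTPase gene on chromosome 11. It began 45 bases before the start in Igtp, 75 in Irgm2, 88 in Tgtp1 and 81 in Tgtp2. The printed windows are offset copies of each other in part. Over the stretch that overlaps, Igtp and Irgm2 were identical at 68 of 70 positions (97.1%) and Tgtp1 and Tgtp2 at 86 of 93 (92.5%). Gm12185 and Tgtp1 were identical at 89 of 98 (90.8%), and Tgtp1 and Igtp at 42 of 57 (73.7%). The likeness thus extends beyond the joined element, and the 5 promoters that hold it are not independent of each other. A match describes the letters and does not show that a factor binds there.

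On GRCm38 (the build mm10, GENCODE M21 gene models) 5 members lie on chromosome 11. Irgm1 (ENSMUSG00000046879) spans 48861968 to 48871683, Tgtp1 (ENSMUSG00000078922) 48985327 to 48994172 and Tgtp2 (ENSMUSG00000078921) 49057194 to 49064206, all on the minus strand. Igtp (ENSMUSG00000078853) spans 58199556 to 58207591 and Irgm2 (ENSMUSG00000069874) 58199618 to 58222782 on the plus strand, so their gene models overlap. The RefSeq promoter windows of Irgm1, Tgtp1 and Irgm2 lie inside the GENCODE spans of these genes. Mx1 (ENSMUSG00000000386) spans 97447035 to 97462907 on the minus strand of chromosome 16, and Mx2 (ENSMUSG00000023341) starts 72401 bases further on and spans 97535308 to 97560900 on the plus strand. Iigp1 (ENSMUSG00000054072) spans 60376027 to 60392634 on the plus strand of chromosome 18.

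Gene counts per library ran from 8107547 to 30385151. Levels are given as CPM, counts scaled to the normalised library size, and per-length levels as the authors' TPM. Kcnj2 ran from 132 to 1648 CPM in Kir libraries and from 36.8 to 104 CPM in WT libraries, and at every age each Kir library lay above each WT library. The markers of the labelled tissue were present: Omp, made by mature olfactory sensory neurons, had a median of 991 CPM in Kir and 1200 CPM in WT libraries. Sample titles carried a prefix of unstated meaning, which was cry4 at P0, P3, P14 and P21, cry6 at P5 and P10 and a mix of cry3, cry4 and cry6 at P7. For WT P0 replicate 3 the title and the stage label disagree (P0 against P3), and the title was followed.

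Irgm1, a regulator of the other GTPases, had the highest mean TPM of the 8 in all 14 groups. In Kir P10 it stood at 64.6 ± 9.67 TPM (SD, n = 4), above every library of the next gene, Tgtp2 at 35.7 ± 5.53 TPM. Igtp, Iigp1, Mx2, Mx1, Irgm2 and Tgtp1 followed, at 28.5, 24.8, 18.4, 16.9, 15.7 and 12.7 TPM, each overlapping the next. In WT P10 Irgm1 stood at 8.60 ± 0.64 TPM (n = 3), again clear of the next gene, Igtp at 3.71 ± 0.26 TPM. Irgm2 (2.16 TPM), Mx2 (1.58) and Tgtp2 (1.52) overlapped, and Iigp1 (0.89), Mx1 (0.50) and Tgtp1 (0.33) lay at the bottom and overlapped each other.

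The makeup of the group also differed by genotype, as a description of the same contrast. Irgm1 made up 29.9% ± 1.71 of the summed TPM of the 8 genes in Kir P10 and 44.8% ± 4.01 in WT P10. Tgtp2 made up 16.5% ± 1.01 in Kir P10 and 7.82% ± 1.08 in WT P10, and Iigp1 11.3% ± 1.03 and 4.54% ± 1.10. At P0 Irgm1 held 37.2% ± 7.61 in Kir and 39.2% ± 2.57 in WT, and Iigp1 11.7% ± 3.22 in Kir and 13.2% ± 1.73 in WT (n = 4 each). By TPM the mean Tgtp2 share at P0 was 6.07% ± 0.67 in Kir and 3.68% ± 1.61 in WT. The mean Tgtp1 share was 6.19% ± 1.99 in Kir and 4.01% ± 0.62 in WT, and both shares overlapped between the genotypes. The counts at P0 were few and went the other way: 20 of Tgtp2 in Kir and 24 in WT, and 15 of Tgtp1 in Kir and 17 in WT.

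Averaged over the 7 ages, each with equal weight, all 8 members were higher in Kir than in WT. Over all genes tested 3.12% were called higher in Kir and 7.43% lower, and since the members were chosen on this contrast nothing is read from their count. The median log2 difference was 2.59 over the members and 0.005 over all genes. In these whole-tissue samples fewer cells of a type and less RNA per cell cannot be told apart, and the same holds for more of either.

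The Mx genes and the effector GTPases differed by the most. Mx1 was 11-fold higher in Kir (log2 difference 3.46 ± 0.36, SE) and Mx2 5.30-fold (2.41 ± 0.22). Among the effectors Tgtp1 was 11.8-fold higher (3.56 ± 0.37), Tgtp2 9.61-fold (3.26 ± 0.30) and Iigp1 6.84-fold (2.77 ± 0.25). The 3 regulators differed by less: Igtp 3.62-fold (1.86 ± 0.16), Irgm1 3.45-fold (1.79 ± 0.14) and Irgm2 3.10-fold (1.63 ± 0.15).

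**Figure D1:**
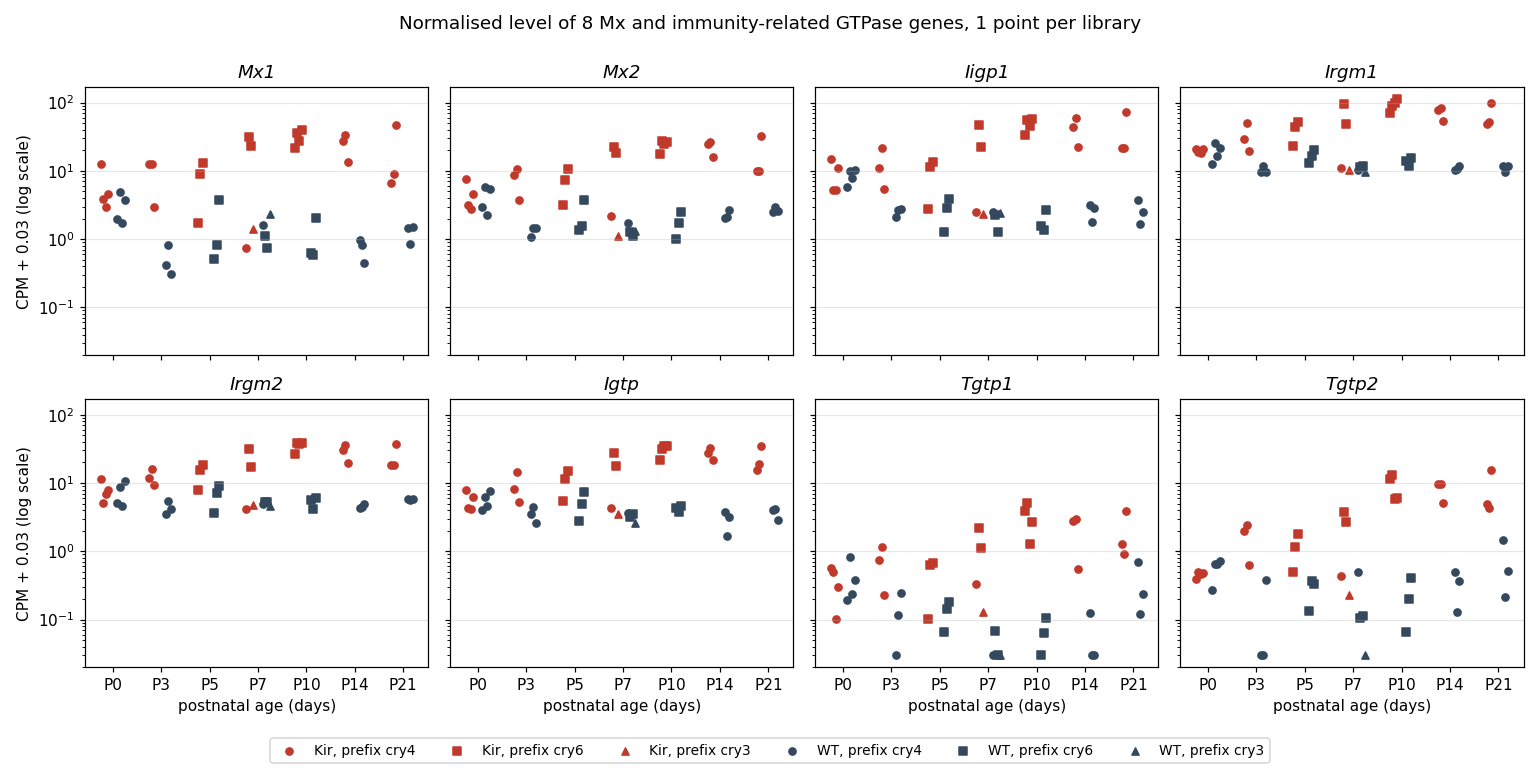
Normalised level (CPM + 0.03, log axis) of each member against postnatal age in days, 1 point per library, Kir in red at the left and WT in dark blue at the right of each age; the marker shape gives the title prefix. The genotypes overlapped in all 8 panels at P0, and every Kir library lay above every WT library in all 8 panels at P10, P14 and P21; points at 0.03 are libraries with 0 counts.

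The genotypes overlapped at birth and parted afterwards. At P0 the members' log2 differences ran from -0.33 to 0.95 with a median of 0.06, and none of the 8 had every Kir library above every WT library (0.938% of all genes did). At P3 the median was 2.40 and 7 of 8 members had no overlap (10.1% of all genes). At P5 and P7 the medians were 1.76 and 2.6, but 2 and 1 of 8 members had no overlap (7.34% and 0.316% of all genes). The member at P7 was Tgtp1, whose lowest Kir library (replicate 4, 0.0988 CPM) and highest WT library (replicate 2, 0.0375 CPM) held 1 count each. At P10 the median was 4.25, at P14 3.68 and at P21 2.69, and 8 of 8 members had no overlap at each of these ages (3.04%, 5.77% and 8.29% of all genes).

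Irgm1 shows the course library by library. At P0 it had 20.6, 18.9, 18.2 and 21 CPM in Kir, against 12.6, 26, 16.6 and 21.9 CPM in WT. At P3 it had 29.4, 50.7 and 19.6 CPM in Kir, against 9.50, 11.8 and 9.49 CPM in WT. At P5 it had 23.0, 43.4 and 51.3 CPM in Kir, against 12.9, 16.3 and 20.3 CPM in WT. The groups overlapped at P0, where the Kir libraries lay inside the WT range, and not at P3 or P5. At P7 it had 10.8, 95.7, 48.4 and 10.2 CPM in Kir, against 10.2, 11.2, 11.7 and 9.73 CPM in WT, and the groups overlapped. At P10 it had 69.8, 89.3, 98.6 and 111 CPM in Kir, against 14.1, 11.8 and 15.2 CPM in WT. At P14 it had 77.1, 82.9 and 54.3 CPM in Kir, against 10.3, 10.7 and 11.8 CPM in WT. At P21 it had 48.6, 52.4 and 97.3 CPM in Kir, against 11.7, 9.45 and 11.8 CPM in WT. At P10, P14 and P21 the lowest Kir library stood well above the highest WT library, and the log2 differences were 2.75 ± 0.38, 2.71 ± 0.40 and 2.59 ± 0.40.

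Iigp1, an effector, overlapped between the genotypes at P0, P5 and P7 and not at P3, P10, P14 or P21. At P0 it had 14.8, 5.30, 5.27 and 10.8 CPM in Kir, against 5.71, 10, 7.83 and 10.3 CPM in WT. At P5 it had 2.77, 11.2 and 13.7 CPM in Kir, against 1.24, 2.83 and 3.78 CPM in WT, with only Kir replicate 1 inside the WT range. At P10 it had 34.1, 55.2, 44.9 and 57.3 CPM in Kir, against 1.53, 1.31 and 2.64 CPM in WT, a 26.2-fold difference. At P21 it had 21.6, 21.3 and 72.7 CPM in Kir, against 3.76, 1.65 and 2.45 CPM in WT. The P21 Kir libraries were uneven, with replicate 3 above the other two.

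At P0 Mx1 had 12.6, 3.90, 2.93 and 4.52 CPM in Kir, against 1.96, 4.93, 1.67 and 3.74 CPM in WT, so that Kir replicate 1 stood apart. At P10 it had 21.3, 36.4, 27.2 and 40.0 CPM in Kir, against 0.589, 0.552 and 2.01 CPM in WT. At P21 it had 6.64, 8.97 and 47.1 CPM in Kir, against 1.45, 0.826 and 1.47 CPM in WT. Mx2 followed it, with 17.4, 27.0, 24.4 and 26 CPM in Kir P10, against 0.971, 1.69 and 2.49 CPM in WT P10. The reads of both genes were mostly their own, since 4.8% of the 50-base stretches of the Mx1 transcript and 6.7% of those of Mx2 occur in another gene.

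Irgm2 and Igtp are the other regulators, and neither overlapped between the genotypes at P10 or P14. In Kir P14 Igtp had 27.3, 32.6 and 21.9 CPM, against 3.78, 1.65 and 3.15 CPM in WT P14, a 9.45-fold difference. In Kir P10 Irgm2 had 26.9, 38.1, 36.7 and 38.8 CPM, against 5.58, 4.14 and 5.99 CPM in WT P10, a 6.70-fold difference. Their gene models overlap, and 12.3% of the 50-base stretches of the Igtp transcript occur in Irgm2 as well.

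Tgtp1 and Tgtp2 are near-identical copies, so the split between them is uncertain. Their transcripts are 99.3% identical, and 91.4% of the 50-base stretches of Tgtp1 and 90.6% of those of Tgtp2 occur in other genes. Multiply mapped reads have a line of their own in the count files, and so do ambiguous reads. The gene model of Tgtp1 also overlaps that of Gm12185, which spans 48904656 to 48992226 on the same strand. The 24 Kir libraries held 595 counts of Tgtp1 and 1721 of Tgtp2, against 45 and 109 in the 23 WT libraries. Tgtp1 was at 0 counts in 7 WT libraries and Tgtp2 in 3, and neither was at 0 in any Kir library. In those libraries a floor of 3 counts corresponds to 0.104 to 0.292 CPM for Tgtp1 and 0.265 to 0.288 CPM for Tgtp2.

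At P10 the pooled libraries held 283 Tgtp1 counts in Kir and 3 in WT, a depth-scaled ratio of 84.0 (95% exact interval for counting error only, 28.4 to 410). At P14 they held 77 in Kir and 1 in WT (ratio 81.2, interval 14.1 to 3250), and at P7 96 in Kir and 1 in WT (ratio 90.2, interval 15.8 to 3600). Counts this low leave the fold of Tgtp1 wide at these ages. Tgtp2 had 11.6, 13.1, 5.85 and 5.93 CPM in Kir P10, against 0.0347, 0.173 and 0.372 CPM in WT P10. The higher pair of Kir libraries were replicates 1 and 2, whose unmapped reads made up 17.7% and 33.5% of the library, against 1.72% and 1.47% in replicates 3 and 4. In the authors' TPM, which share reads among copies, the same 4 libraries had 28.8, 40.5, 33.5 and 39.9. The part of the library type in the split by counts was not tested.

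**Figure D2:**
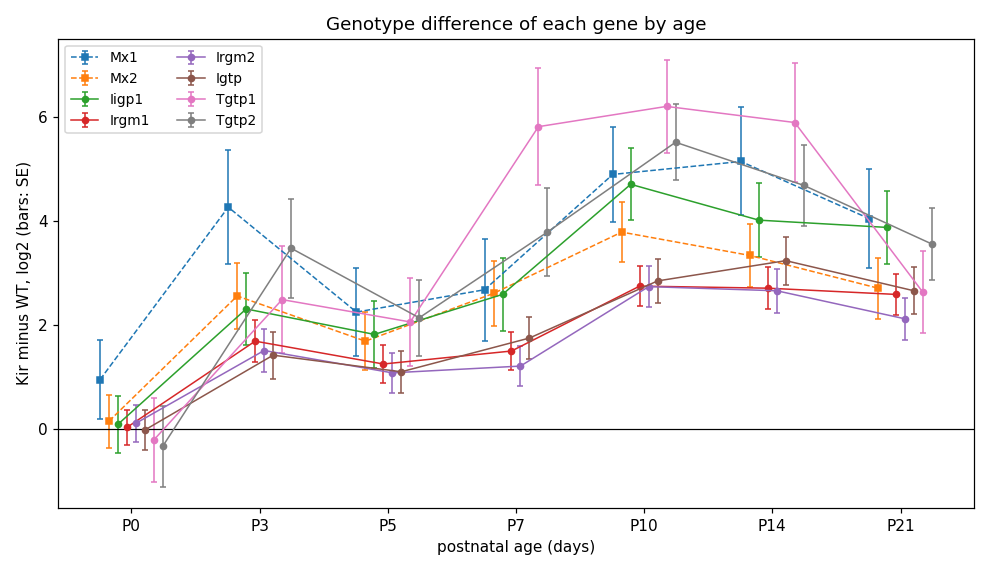
Fitted log2 difference, Kir minus WT, of each member at each postnatal age in days, with bars for the SE; squares and dashed lines mark the Mx genes. The members lay between -0.33 and 0.95 at P0 and between 2.74 and 6.21 at P10; the Tgtp1 values at P7, P10 and P14 rest on 1 to 3 WT counts and depend on the prior count of the fit.

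Changes with age within a genotype were tested with edgeR's quasi-likelihood test and Benjamini-Hochberg adjustment over all genes. The late Kir libraries that enter these tests also enter the genotype difference on which the members were chosen, so the Kir tests are not independent of that choice. In Kir all 8 members rose between P0 and P21, while 22.9% of all genes did. Their median log2 fold change was 2, against -0.044 for all genes. Tgtp2 rose most, 18.8-fold (4.23 ± 0.66, adjusted p = 2.58e-06), and Igtp and Irgm1 rose 4.11-fold (2.04 ± 0.40, adjusted p = 6.07e-05) and 3.36-fold (1.75 ± 0.35, adjusted p = 8.81e-05). Irgm2, Mx2, Iigp1 and Tgtp1 rose by log2 fold changes of 1.68 to 2.57 (adjusted p = 0.000282 to 0.00322). Mx1 was the least certain (1.81 ± 0.75, adjusted p = 0.0432).

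The rise rested in part on Kir P21 replicate 3, the P21 library with the highest Kcnj2. Without it Mx1, Mx2, Iigp1 and Tgtp1 were no longer called, and Irgm1, Irgm2, Igtp and Tgtp2 were, at log2 fold changes of 1.39, 1.28, 1.65 and 3.44. Mx1 also lost its call without Kir P0 replicate 2, 3 or 4.

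In WT the same span gave 1 call of 8, a fall of Iigp1 to 0.308 of its P0 level (log2 fold change -1.70 ± 0.67, adjusted p = 0.0335), where 26.8% of all genes fell and 50.8% were called either way. It was not called without WT P0 replicate 2 (0 members called), WT P0 replicate 4 (0), WT P21 replicate 2 (0) or WT P21 replicate 3 (0). Irgm1 had a log2 fold change of -0.81 ± 0.37 (adjusted p = 0.0683) and was called as well without WT P0 replicate 1 (2 members called). The other 6 had log2 fold changes of -1.29 to 0.35, with SEs of 0.39 to 0.95. The summed level of the 8 genes ran from 25.0 to 31.2 CPM in WT P21 and from 32.6 to 63.0 CPM in WT P0.

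Between P5 and P10, ages that share the prefix cry6, 7 of 8 members rose in Kir, while 5.28% of all genes did. Kir P10 replicates 1 and 2 stood apart from the other cry6 libraries, with 307 and 271 CPM of Rps6, a ribosomal protein gene, against 1.11 to 1.99 CPM, and with 17.7% and 33.5% of reads unmapped. Tgtp2 rose 8.13-fold (3.02 ± 0.60, adjusted p = 0.00128), Tgtp1 7.21-fold (2.85 ± 0.65, adjusted p = 0.00456) and Iigp1 5.2-fold (2.38 ± 0.60, adjusted p = 0.00912). Igtp, Irgm2, Irgm1 and Mx2 rose 2.35-fold to 3.35-fold (adjusted p = 0.0106 to 0.0258). Mx1 had a log2 fold change of 2 ± 0.76 (adjusted p = 0.0949).

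The number of calls fell to 2 without Kir P5 replicate 1, whose summed members stood at 44.5 CPM, against 99.6 and 124 CPM in the other P5 libraries, and to 4 without the 2 Kir P10 libraries with most unmapped reads. In WT none of the 8 was called between P5 and P10 by edgeR, DESeq2 or limma, and edgeR gave none at an unadjusted p below 0.05, where 1.93% of all genes were called. The WT log2 fold changes ran from -1.30 to -0.22.

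**Figure D3:**
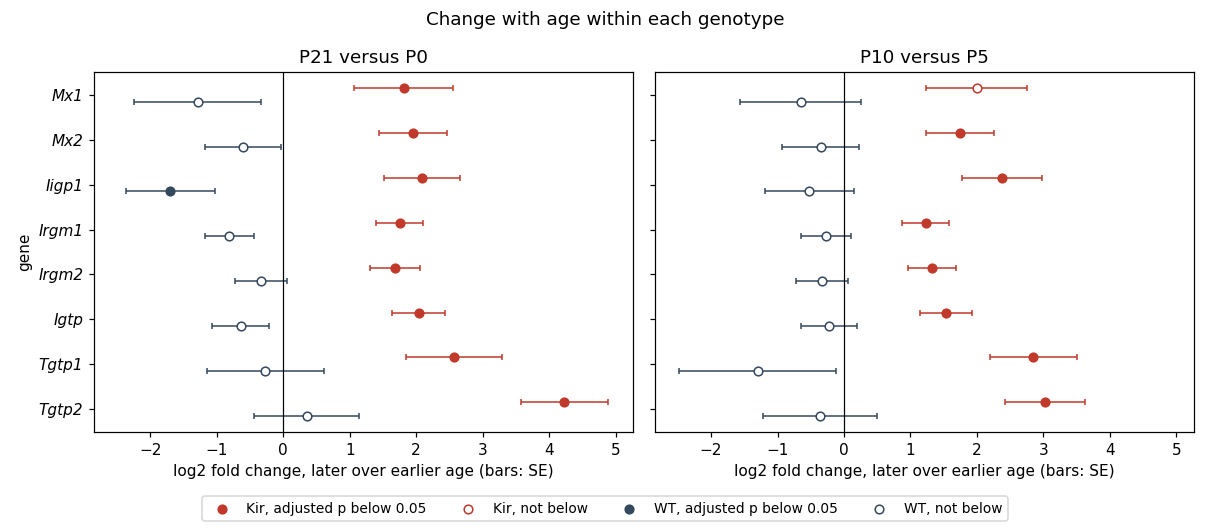
Log2 fold change of each member from P0 to P21 and from P5 to P10, Kir above WT in each row, with bars for the SE; filled points passed an adjusted p of 0.05. In Kir 8 of 8 points at P21 versus P0 and 7 of 8 at P10 versus P5 were filled; in WT 1 and 0 were.

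The difference between the genotypes was itself tested for a change with age. These tests are built from the contrast on which the members were chosen, so their calls describe the members and are no independent support. From P0 to P21 it grew for 3 of 8 members, where 0.271% of all genes had a growing difference. These were Irgm1 (log2 change of the difference 2.56 ± 0.51, adjusted p = 0.012), Igtp (2.68 ± 0.59, adjusted p = 0.030) and Iigp1 (3.79 ± 0.88, adjusted p = 0.048). The other 5 had changes of 2.01 to 3.89 with larger errors or weaker p-values (Irgm2, adjusted p = 0.138; Tgtp2, 0.145; Mx2, 0.264; Mx1, 0.538; Tgtp1, 0.562). A joint test over the 7 ages called 5 of 8 members, where 0.381% of all genes were called: Irgm1 (adjusted p = 0.013), Igtp (0.0142), Iigp1 (0.0322), Irgm2 (0.0382) and Tgtp1 (0.0393), with Tgtp2 at 0.0526, Mx2 at 0.118 and Mx1 at 0.505.

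These calls depended on single libraries. Irgm1 and Igtp kept the joint call whichever of the 47 libraries was left out, and in the test of P21 against P0 1 member was called without Kir P0 replicate 2, 3 or 4, WT P0 replicate 2 or 4 or WT P21 replicate 1 or 3, and 0 without Kir P21 replicate 3 or WT P21 replicate 2. With no term for the title prefix neither test called any member.

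The level of the transgene's gene and of the members varied together in several Kir groups. At P7 replicates 2 and 3 had 903 and 1140 CPM of Kcnj2 and summed members of 261 and 150 CPM, while replicates 1 and 4 had 146 and 173 CPM of Kcnj2 and summed members of 25.4 and 23.4 CPM. The WT P7 libraries had summed members of 24.9, 24.4, 23.5 and 22.8 CPM, so the low Kir pair stood at the WT level. The groups match by prefix: within cry6, replicates 2 and 3 of each genotype, Irgm1 had 95.7 and 48.4 CPM in Kir and 11.2 and 11.7 CPM in WT. Within cry4, replicate 1, it had 10.8 CPM in Kir and 10.2 CPM in WT, and within cry3, replicate 4, 10.2 CPM in Kir and 9.73 CPM in WT.

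At P21 replicate 3 had 1050 CPM of Kcnj2 and summed members of 341 CPM, and replicates 1 and 2 had 209 and 238 CPM of Kcnj2 and summed members of 127 and 135 CPM. Unlike the low pair at P7, these last libraries stood above the WT libraries of their age, which had 25.0 to 31.2 CPM. At P3 replicate 3 had 132 CPM of Kcnj2 and summed members of 47 CPM, against 84.5 and 130 CPM in replicates 1 and 2 with 959 and 644 CPM of Kcnj2. Other libraries departed from this. At P14 replicate 3 had the highest Kcnj2 of all libraries, 1648 CPM, and the lowest summed members of its group, 153 CPM, against 243 and 283 CPM in replicates 1 and 2 with 1450 and 1387 CPM of Kcnj2. At P0 Kcnj2 stood at 439 to 639 CPM in Kir and the summed members at 40.6 to 75.7 CPM, against 32.6 to 63.0 CPM in WT, and Kir P5 replicate 1 had 812 CPM of Kcnj2 and summed members of 44.5 CPM.

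The 5 Kir libraries of lowest Kcnj2 were chosen after the values were seen. Without them 7 of 8 members were called in the test of P21 against P0 and 8 of 8 in the joint test. The median genotype difference was 3.01 in place of 2.59. These 5 also had the lowest summed members of their groups, so a larger difference follows from leaving them out. Calls over all genes in the test of P21 against P0 rose too, as given below. With all libraries 0.271% of all genes had a growing difference and 0.381% passed the joint test. The spread between libraries was wider in Kir than in WT at every age but P0. The highest summed level was 11.2 times the lowest in Kir P7 and 1.09 times in WT P7. It was 2.69 and 1.25 times at P21, 2.77 and 1.33 times at P3 and 2.79 and 2.14 times at P5. At P14 it was 1.85 and 1.21 times, at P10 1.53 and 1.42 times and at P0 1.86 and 1.93 times. In Kir P5 the spread came with Kcnj2 at 778 to 959 CPM. The part of Kcnj2 level in the members' level was not tested.

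**Figure D4:**
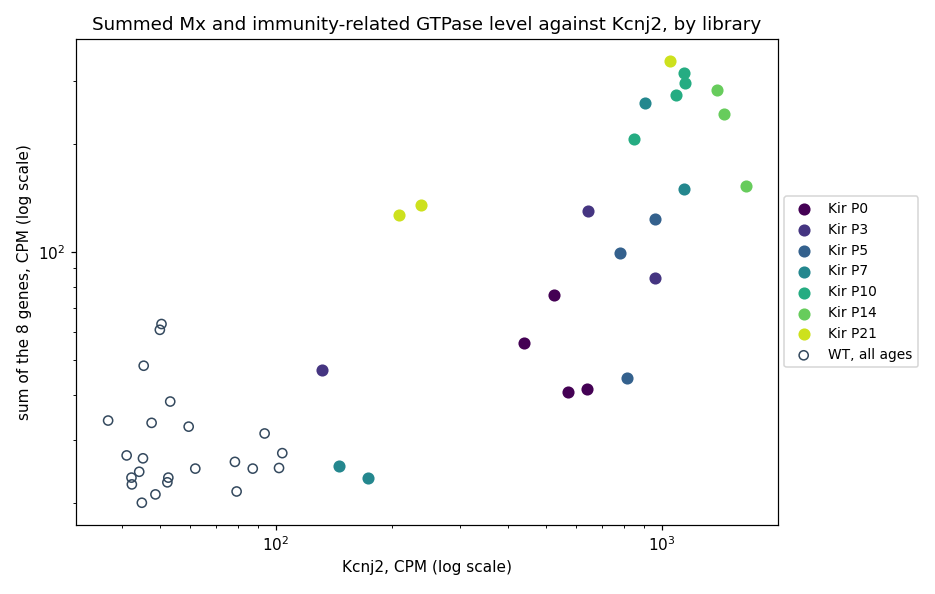
Sum of the 8 members (CPM, log axis) against Kcnj2 (CPM, log axis), 1 point per library, Kir libraries coloured by age and WT libraries as open circles. At P7 the 2 Kir libraries with little Kcnj2 stood at 25.4 and 23.4 CPM, beside the WT libraries, and the other 2 at 261 and 150 CPM; the P0 Kir libraries had ample Kcnj2 and summed members of 40.6 to 75.7 CPM.

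The levels of the members varied together across libraries. Over the 47 libraries Pearson correlations of log2 CPM between the 28 pairs of members ran from 0.873 to 0.979, within the 24 Kir libraries from 0.845 to 0.981 and within the 23 WT libraries from 0.378 to 0.789. Libraries share depth, age and genotype, so these values describe and carry no test. The genes named here as most like each member are all known as interferon-stimulated genes. Irgm1 went closely with Usp18 (r = 0.983), which removes Isg15 and damps interferon signalling, and with Isg15 (0.980). Usp18 also went closely with Irgm2 (0.971) and Igtp (0.972), as did Bst2 with Irgm2 (0.971) and Parp9 with Igtp (0.968).

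The correlations lie close together, and differences between them were not tested. Mx2 went with Ifit3 (0.982), an RNA-binding antiviral protein, with Rsad2 (0.978), which makes a chain-ending nucleotide, and with Ifit3b (0.973). Mx1 went with Gbp3 and Ifit3 (0.963 each) and Ifit3b (0.961). Iigp1 went with Gbp7 (0.973), Rsad2 (0.971) and Gbp3 (0.970), of which the Gbp genes encode guanylate-binding proteins that join immunity-related GTPases at vacuoles. Tgtp1 and Tgtp2 went with Ifit3b (0.922 and 0.944), Ifit3 (0.921 and 0.932) and Slfn8 (0.915 and 0.940).

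Related genes were examined from lists in the order of the pathway, by Kir minus WT averaged over ages. Adjustment was over all genes in edgeR, of which 3.12% were higher and 7.43% lower (median 0.005). The lists were chosen with earlier results of these data known, so calls within them describe these genes and are no independent support. Of the 13 interferon genes listed none passed the filter on low counts. Ifng, the gene of interferon gamma, had 2 counts in all Kir libraries and 2 in all WT libraries, and Ifnb1 had 0 in Kir and 2 in WT. The interferon lambda genes, named here after their values were seen, had counts in Kir alone: Ifnl2 had 11 counts in 7 of 24 Kir libraries and Ifnl3 13 counts in 8 of 24, against 0 in 23 WT libraries, and a count of 0 allows up to 3 over that group. The authors' TPM listed each gene above 0 in 1 WT library, at 0.26 for Ifnl2 and 0.28 for Ifnl3. At this depth the interferon genes were mostly not detectable, which does not show that they were silent.

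Of 17 receptor and signalling genes 7 were higher in Kir and 0 lower. Ifnar1, a type I receptor chain, had a log2 difference of -0.02 ± 0.03, and Ifngr1, a chain of the interferon gamma receptor, one of 0.11 ± 0.06 (adjusted p = 0.727 and 0.283). Irf9 (1.33 ± 0.10, adjusted p = 4.28e-12), Usp18 (2.46 ± 0.21, adjusted p = 3.77e-11) and Stat2 (1.03 ± 0.10, adjusted p = 1.07e-09) were among those higher. Irf1, the factor through which interferon gamma acts on many of its targets, was higher by 0.49 ± 0.07 (adjusted p = 8.56e-07).

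Other interferon-inducible GTPases were higher with the members. Of 25 listed, 23 were in the table and 16 passed the filter, and 15 of these 16 were higher in Kir and 0 lower, with a median of 1.81. The listed gene that was not called was Irgq, named after its value was seen (-0.06 ± 0.05), with a median of 145 CPM in Kir and 144 CPM in WT. Whether interferon induces Irgq was not examined here. Gbp3 (2.65 ± 0.21, adjusted p = 1.08e-11), Gm4951 (4.33 ± 0.39, adjusted p = 1.97e-10), Gm4841 (3.35 ± 0.31, adjusted p = 2.16e-10) and Gbp7 (1.71 ± 0.16, adjusted p = 2.61e-10) led the list, and Ifi47, which encodes the immunity-related GTPase Irgd, was higher by 1.74 ± 0.20 (adjusted p = 2.36e-08). With age 9 of the 16 rose in Kir between P0 and P21 (22.9% of all genes) and 14 of the 16 between P5 and P10 (5.28% of all genes). In WT 2 of the 16 fell and 0 rose between P0 and P21, where 26.8% of all genes fell.

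Relatives outside the interferon response did not share this. Of 10 dynamin superfamily genes 0 were higher and 2 lower (3.12% and 7.43% of all genes). The lower genes were Dnm1, the dynamin of nerve endings (-0.43 ± 0.08, adjusted p = 7.6e-05), and Mfn2, which fuses mitochondria (-0.15 ± 0.04, adjusted p = 0.00684). Of 10 genes of the autophagy conjugation machinery, which guides immunity-related GTPases to vacuoles, 0 were called in either direction by edgeR, and their median was -0.00163.

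Markers of other cells moved with genotype by less than the members. Macrophage markers were higher in Kir in 7 of 8 cases (3.12% of all genes), with a median log2 difference of 0.457. Their summed level ran from 90.7 to 180 CPM in Kir and from 61.1 to 156 CPM in WT libraries. C1qb, C1qa and C1qc, the chains of complement C1q, led them (0.60 ± 0.08, 0.50 ± 0.07 and 0.54 ± 0.08), followed by Aif1 (0.53 ± 0.11). Of 11 T and NK cell markers 2 passed the filter and both were higher, Cd4 (0.87 ± 0.12) and Lck (0.35 ± 0.11), while the summed level ran from 2.6 to 6.12 CPM in Kir and from 1.67 to 4.40 CPM in WT. Of Cd3e, Cd8a, Ncr1, Prf1 and Gzmb at least 1 had 0 counts in every library of Kir P0, P5 and P14, and of each WT age. Mature sensory neuron markers were lower in 5 of 5 cases (7.43% of all genes), with a median of -0.399. The part of these cells in the members' level was not tested.

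**Figure D5:**
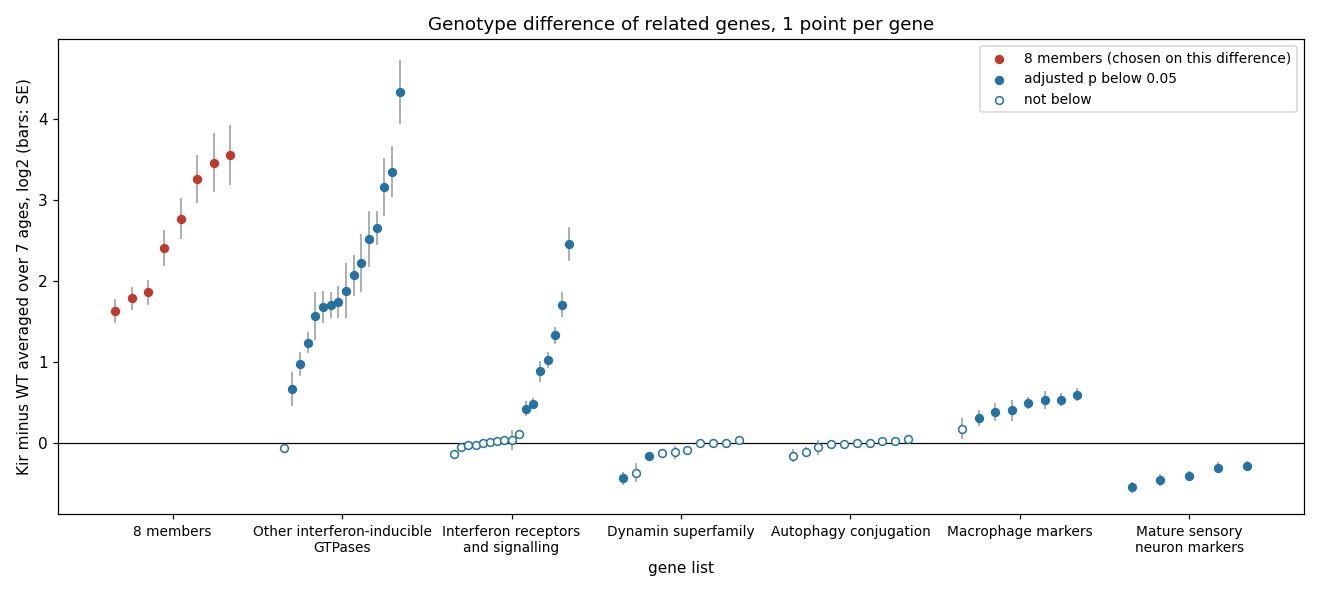
Kir minus WT log2 difference averaged over 7 ages, 1 point per tested gene with its SE, by gene list; red points are the 8 members and filled blue points other genes past an adjusted p of 0.05. Other interferon-inducible GTPases were higher in 15 of 16 cases, 7 of 17 receptor and signalling genes were higher, and dynamin and autophagy genes lay near 0. The lists were chosen with earlier results of these data known.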

How the data were processed

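Olfactory epithelium of 47 libraries in 14 groups was analysed. The build mm10 and the tools STAR 2.6.1c, bcl2fastq 2.18 and RSEM are named per the submitters' processing notes. The sources used here do not give the strand setting of the counting. Counts were deposited as whole numbers per gene; 4 lines that name no gene were left out (unmapped 1.31% to 33.5% of reads, multiply mapped 5.17% to 20.6%). The authors' TPM, made with RSEM, served for levels per length. Counts were fitted in edgeR 4.0.16 (R 4.3.3): TMM, filterByExpr, a mean per group and title prefix as covariate in 1 fit of all libraries, quasi-likelihood F tests, two-sided, Benjamini-Hochberg adjustment, calls below 0.05. Each SE of an edgeR log2 value is the size of that value divided by the square root of its F statistic, and is approximate where counts are low. Precision follows depth, 8107547 to 30385151 gene counts. Fits were tested on simulated data with genes changed in Kir P21 alone. In Kir P21 versus P0 11 of 177 calls were false, and in the change of the difference 9 of 138. Of equal numbers simulated, the change of the difference recovered 43 of the 2-fold and 86 of the 4-fold changes. Alternatives used DESeq2 1.42.0, limma 3.58.1 on log2(TPM + 1) or log2(TPM + 0.1) with TPM of at least 1 in 3 libraries, other normalization, filters and libraries. Transcripts and promoters were aligned with Biopython.

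The members and lists were chosen with earlier results of these data known. All members are named, with the 3 genes of mean CPM of at least 1 most correlated with each (log2 CPM, prior count 2) and up to 4 genes of smallest adjusted p per list; 1 gene that these rules pick is not reported here. No 2 replicates were duplicates: over 57 pairs counts differed by at least 7.24 times the sampling variance.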

Additional observations from a re-analysis of the deposited data

Results flagged for a closer look

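Samples were examined in 40 groups of 4 values, a gene in a group, and 2 had a sample far from the others, as many as chance gives, since it marks about 1 in 20. Mx1 in Kir P0 replicate 1 stood at 12.6 CPM, against 2.93 to 4.52 CPM in the other Kir P0 libraries. Tgtp1 in WT P7 replicate 2 stood at 0.0375 CPM, a single count, against 0 in the other WT P7 libraries.

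The genotype effect differed between P21 and P0 by a test of the difference for Iigp1 (log2 change 3.79), Igtp (2.68) and Irgm1 (2.56). It differed among the 7 ages for Irgm1 (edgeR adjusted p = 0.013), Igtp (0.0142), Iigp1 (0.0322), Irgm2 (0.0382) and Tgtp1 (0.0393).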

How the results depend on the processing

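The median genotype difference of the members was 2.59 and stayed positive for all 8 under each alternative; it ran from 2.48 to 2.68 with 1 library left out and was 1.77 on log2(TPM + 1), a scale that shrinks low genes. Of 8 members called higher in Kir P21 than P0, 6 to 8 were called under the other alternatives and 4 to 8 with 1 library left out. WT P21 versus P0 gave 1 call, but 2 without the filter, by DESeq2, on P0, P3, P14 and P21 libraries alone with or without a replicate block, and without the 5 Kir libraries of lowest Kcnj2, and 0 by limma on log2(TPM + 1) or with WT P0 replicate 3 placed in P3; 0 to 2 with 1 library left out. Kir P10 versus P5 gave 7 calls, but 4 by limma on log2(TPM + 0.1) and 4 without the 2 Kir P10 libraries with most unmapped reads; 2 to 7 with 1 library left out. WT P10 versus P5 gave 0 throughout. The change of the genotype difference from P0 to P21 gave 3 calls, but 5 without the filter, 5 by DESeq2, 7 without the 5 low-Kcnj2 libraries and 0 without the prefix term; 0 to 3 with 1 library left out. The joint test over ages gave 5, but 3 by limma at either pseudocount, 0 without the prefix term, 2 without the 2 Kir P10 libraries and 8 without the 5 low-Kcnj2 libraries; 2 to 6 with 1 library left out. It was 2 without Kir P0 replicate 2, 3 or 4, Kir P10 replicate 2, WT P0 replicate 2 or 4, WT P10 replicate 1 or 2 or WT P21 replicate 3, and 3 without Kir P14 replicate 1 or 2, WT P0 replicate 3, WT P5 replicate 3, WT P10 replicate 3 or WT P14 replicate 2 or 3. The causes were not tested.

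Signs turned where WT was not called: Tgtp2 P10 versus P5 was 0.29 and 0.52 by limma on log2(TPM + 1) and log2(TPM + 0.1), and with 1 library left out it ran from -1.19 to 0.12, Mx1 from -1.51 to 0.72, Mx2 from -0.71 to 0.25 and Igtp from -0.51 to 0.17. For P21 versus P0 with 1 library left out Tgtp1 ran from -1.23 to 0.38, turning also at 0.17, and Tgtp2 from -0.6 to 0.8. Replicate numbers are shared between groups. In the pairs compared, all among P0 and P21 groups, the deviations of libraries of the same number correlated at -0.192 to 0.304. These values cannot show whether such libraries were handled together, and at P7 the number goes with the title prefix in both genotypes. With the replicate as a block, among P0, P3, P14 and P21 libraries, 8 members were called in Kir P21 versus P0 and 3 in the change of the difference, against 8 and 4 without it, and the averaged median was 2.38 both ways. Low counts limit Tgtp1 and Tgtp2.

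Over all genes, counts of calls differed by over 1.5 times as follows. Kir P10 versus P5 gave 1745, but 588 and 548 by limma on log2(TPM + 1) and log2(TPM + 0.1) and 621 without the 2 Kir P10 libraries. WT P10 versus P5 gave 385, but 81 and 78 by limma, 649 by DESeq2 and 228 with WT P0 replicate 3 in P3. Kir P21 versus P0 gave 9740, but 5629 without the 5 low-Kcnj2 libraries. The change of the difference gave 57, but 91 without the filter, 110 by DESeq2, 18 without the prefix term and 111 without the 5 libraries. The joint test gave 76, but 252, 248 and 18 under the first 3 of these. The averaged difference gave 2101, but 1369 and 1305 by limma and 1026 and 952 on P0, P3, P14 and P21 libraries with and without the block.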

Other observations

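The counts of Ifnl2 and Ifnl3 together, over all libraries of an age, were 0 at P0, 0 at P3, 3 at P5, 3 at P7, 13 at P10, 2 at P14 and 3 at P21 in Kir, and 0 at each age in WT. Each Kir P10 library held at least 1 of them. With counts this low no fold is given.

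The remaining lists of cell markers were not called between the genotypes by edgeR in any case: 3 immature sensory neuron, 3 sustentacular, 3 basal, 4 endothelial, 3 respiratory ciliated and 3 B cell genes. Their median log2 differences were 0.00559, -0.0434, 0.219, 0.0465, 0.0303 and 0.215.

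Rps6, a ribosomal protein gene, split the libraries by prefix, at 1 to 1.99 CPM in all cry3 and cry6 libraries other than Kir P10 replicates 1 and 2, which had 307 and 271 CPM, and at 107 to 339 CPM in the cry4 libraries.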
